A study of Mus musculus with 6 samples.

Results

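The genes described here are the ligands, receptors and adaptors of the tumour necrosis factor (TNF) family in the left ventricle of mouse hearts that received the RNA-binding protein Rbm24 or GFP by adeno-associated virus serotype 9 (AAV9). They were chosen by gene symbol (names built on Tnfsf and Tnfrsf, the older names of family members, and the adaptors Traf1, Traf2 and Traf3). Of the 48 names that the rule gives, 44 had a transcript cluster of their own among the 30176 genes of the array that did: 16 ligands, 26 receptors and 2 adaptors. The clusters that carry Cd27, Tnfsf12 and Tnfsf13 are annotated to several genes, so no value is given for these 3, and Traf3 was not analysed here. Tnfsf12 (TWEAK) is the ligand of Tnfrsf12a.

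Male C57/Bl6 wild-type mice were injected intraperitoneally at 1 week of age with 4000000000000 viral genomes (vg) of AAV9-GFP (n = 3) or AAV9-Rbm24 (n = 3), and left ventricular RNA was taken 2 weeks later and hybridized to 1 Affymetrix Mouse Transcriptome Array 1.0 per heart. Both groups thus carried a virus, and no uninjected heart was among the arrays. The vector encodes a flag-tagged mouse Rbm24 open reading frame under a CMV promoter, which is not restricted to a cell type, while AAV9 itself reaches mainly cardiomyocytes in the heart. Values are log2 signals after robust multi-array averaging (RMA), so 1 unit is a doubling of signal. Probes differ between genes, so signals set beside an array median, a minimum or other genes describe brightness on the array, not transcript amounts.

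The TNF superfamily consists of ligands that are made as membrane proteins, many of which can be shed, and of receptors that trimerize around them. Receptors with an intracellular death domain can start caspase-dependent cell death or NF-κB signalling, receptors without one recruit TRAF adaptors directly, and decoy receptors bind a ligand without passing on a full signal. In the heart, TNF acts through TNFR1 (Tnfrsf1a) and TNFR2 (Tnfrsf1b), and Fn14 (Tnfrsf12a) is a small receptor known for its induction by growth factors and tissue injury.

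In AAV9-Rbm24 hearts Tnfrsf12a was 3.10-fold higher than in AAV9-GFP hearts, the 1 family member that passed the test over all clusters. Tnfrsf1a, Tnfrsf1b and Tnfrsf11a (RANK) lay 1.48-, 1.54- and 1.28-fold higher, each with groups that did not overlap and an unadjusted p under 0.05, but did not pass after adjustment. None of the 16 ligands reached an unadjusted p under 0.05 in limma over the 6 hearts, although Fasl did so under 5 other ways of processing the same hearts. The promoters of these 4 receptors are shown first because the results turn on these genes. They are RefSeq sequences of the GRCm38.p6 assembly, from 250 bases before to 50 bases after the annotated start, and capitals mark matches to 3 short motifs: GGNNNTTCC (NF-κB), TGANTCA (AP-1) and GGGCGG (GC box, bound by Sp1), each searched on both strands.
Tnfrsf12a, chr17:23677400-23677699, minus strand: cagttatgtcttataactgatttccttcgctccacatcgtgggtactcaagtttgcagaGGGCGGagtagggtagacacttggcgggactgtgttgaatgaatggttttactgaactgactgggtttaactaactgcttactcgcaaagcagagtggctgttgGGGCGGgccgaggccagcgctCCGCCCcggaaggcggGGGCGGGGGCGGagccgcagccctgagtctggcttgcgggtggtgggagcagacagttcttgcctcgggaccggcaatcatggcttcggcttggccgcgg
Tnfrsf1a, chr6:125349473-125349772, plus strand: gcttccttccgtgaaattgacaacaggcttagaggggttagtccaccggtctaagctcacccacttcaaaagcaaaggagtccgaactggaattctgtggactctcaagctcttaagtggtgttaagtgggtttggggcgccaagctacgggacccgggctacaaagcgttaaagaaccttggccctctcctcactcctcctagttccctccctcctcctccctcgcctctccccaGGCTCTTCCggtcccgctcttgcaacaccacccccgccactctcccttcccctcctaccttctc
Tnfrsf1b, chr4:145246821-145247120, minus strand: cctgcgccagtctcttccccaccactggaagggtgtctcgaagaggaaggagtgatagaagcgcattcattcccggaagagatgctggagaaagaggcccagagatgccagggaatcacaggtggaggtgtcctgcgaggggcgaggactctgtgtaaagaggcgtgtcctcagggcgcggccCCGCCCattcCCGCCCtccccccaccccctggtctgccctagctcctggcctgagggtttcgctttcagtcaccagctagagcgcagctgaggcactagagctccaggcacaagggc
Tnfrsf11a, chr1:105780473-105780772, plus strand: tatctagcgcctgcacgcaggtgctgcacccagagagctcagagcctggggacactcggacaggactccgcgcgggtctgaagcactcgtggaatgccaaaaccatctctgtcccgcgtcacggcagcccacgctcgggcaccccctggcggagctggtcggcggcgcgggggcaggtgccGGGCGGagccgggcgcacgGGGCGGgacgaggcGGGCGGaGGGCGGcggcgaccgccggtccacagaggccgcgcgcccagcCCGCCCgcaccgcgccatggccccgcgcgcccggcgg
The capitals in Tnfrsf12a and in Tnfrsf11a are 5 GC boxes each, those in Tnfrsf1b are 2 GC boxes, and the 1 match in Tnfrsf1a is an NF-κB motif that begins 14 bases before the start. No motif overlapped another in these 4 windows. Of 32851 promoter windows of 300 bases in the table, 35.7% held a GC box, 18.5% the NF-κB motif and 7.81% the AP-1 motif. Promoters were matched for 35 of the 44 members, and of their 39 windows 19 held a GC box, 9 the NF-κB motif and 6 the AP-1 motif. A match describes letters and does not show binding.

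The 6 arrays had median signals of 5.49 to 5.67. AAV9-GFP replicate 2 was set apart from the other 5 hearts along the leading principal component (37.4% of the variance), and some values are also given without this heart. Without it, 8 members changed sign. Rbm24 itself measured 13.95, 13.63 and 13.57 after AAV9-GFP against 14.58, 14.74 and 15.12 after AAV9-Rbm24, every AAV9-Rbm24 heart above every AAV9-GFP heart, with a log2 fold change of 1.10 (SE 0.168, limma adjusted p = 0.0607). The cardiomyocyte markers were bright on all arrays, Myh6, Actn2 and Tnnt2 near the highest signal an array gave (maximum 19.93). The mean log2 signal of 6 such markers was 17.22 to 17.32 in AAV9-GFP and 17.12 to 17.20 in AAV9-Rbm24 hearts, lower in every AAV9-Rbm24 heart. Most of this came from Ryr2 and Tnni3 (log2 differences -0.365 and -0.196). Myh6, Actn2, Tnnt2 and Myl2 differed by only -0.001, 0.009, -0.008 and -0.048.

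Across the 44 members, the count called at a limma adjusted p under 0.05 was 1 higher and 0 lower, where 0.241% of all 65956 clusters were called higher and 0.0258% lower. At the thresholds the methods name (1.5-fold or more, with p under 0.05 before adjustment), 2 members were higher and 0 lower, beside 1.23% and 0.552% of all clusters. An unadjusted p under 0.05 was found for 4 members higher and 0 lower, beside 4.08% and 4.33% of all clusters. In 8 members every AAV9-Rbm24 heart lay above every AAV9-GFP heart and in 2 members below, beside 7.01% and 7.71% of all clusters. Restricted to the 30176 named genes, 0.381% were called higher, 1.58% were higher at the thresholds of the methods and 5.06% were higher at an unadjusted p under 0.05. The median log2 fold change was 0.05 over the members and -0.02 over all genes, with 28 members above 0 and 16 below. All 4 members with an unadjusted p under 0.05 were receptors, which make up 26 of the 44 members. Without AAV9-GFP replicate 2 the count was 8 (5.22% of all clusters), with Fasl (0.26), Tnfsf14 (0.26), Ngfr (0.31) and Tnfrsf22 (0.24) added, so 2 of the 8 were then ligands, and 0 members or other clusters were called after adjustment. The receptors had a median of 0.10 (18 above 0, 8 below), and without those 4 the other 22 had a median of 0.06.

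**Figure D1:**
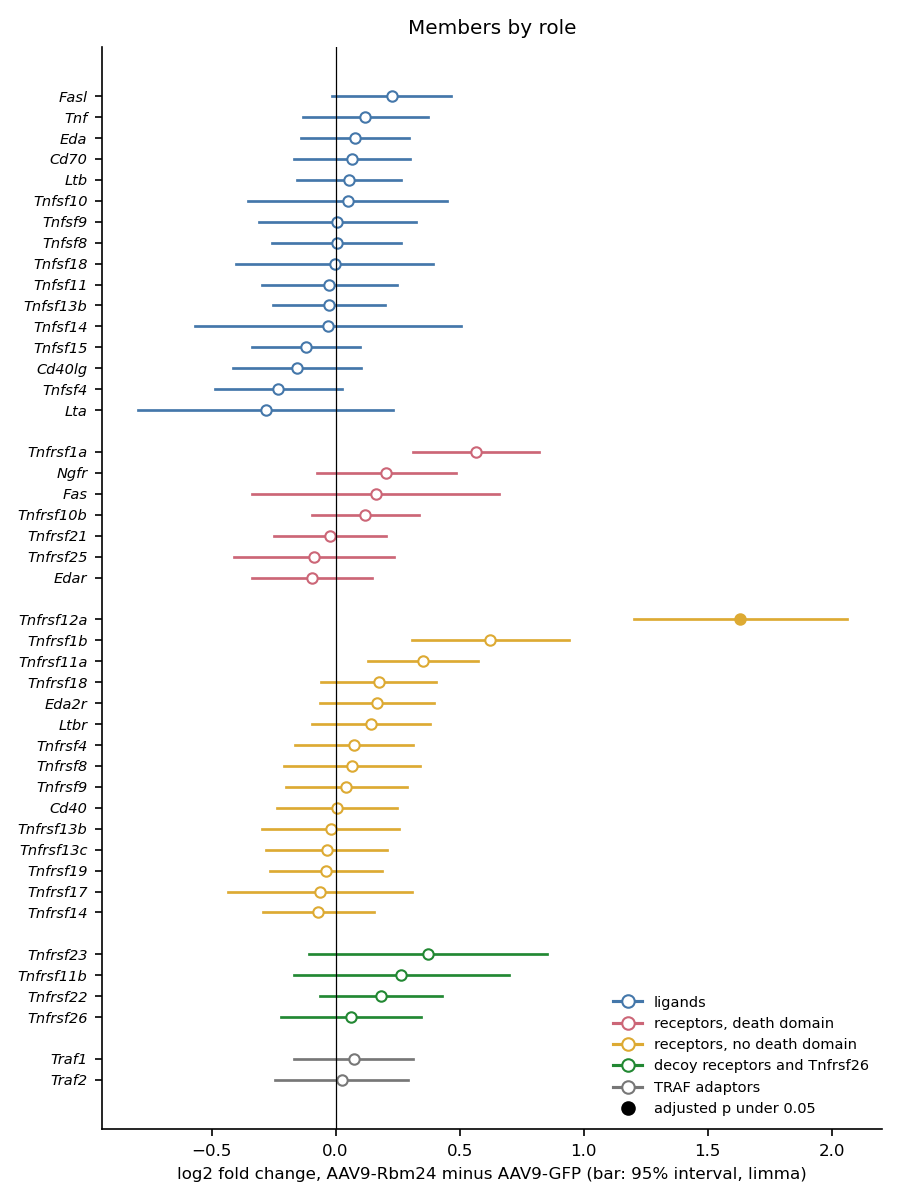
Log2 fold change (AAV9-Rbm24 minus AAV9-GFP) of all 44 members, grouped by role, with 95% intervals from limma, and with a filled point where the adjusted p was under 0.05. The interval of Tnfrsf12a (1.203 to 2.059) lies apart from the rest, and those of Tnfrsf1a, Tnfrsf1b and Tnfrsf11a exclude 0 while no ligand's does.

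Tnfrsf12a encodes Fn14, the receptor of TWEAK, which has no death domain and signals through TRAF adaptors. Its log2 signal was 7.48, 6.79 and 7.24 in AAV9-GFP replicates 1 to 3 and 8.93, 8.61 and 8.86 in AAV9-Rbm24 replicates 1 to 3. The groups were more than 1 log2 unit apart, with AAV9-GFP replicate 2 the lowest heart and little spread among AAV9-Rbm24 hearts. The means were 7.17 ± 0.354 and 8.80 ± 0.167 (SD, n = 3 each), a log2 fold change of 1.63 (SE 0.185, 95% interval 1.203 to 2.059, limma adjusted p = 0.0241), or 3.10-fold (2.30 to 4.17). The call was lost when any 1 heart was left out. The limma adjusted p was 0.0656, 0.0941 and 0.0841 without AAV9-GFP replicate 1, 2 or 3. It was 0.0881, 0.0891 and 0.0667 without AAV9-Rbm24 replicate 1, 2 or 3. In these fits the log2 fold change stayed between 1.44 and 1.79. The limma unadjusted p stayed between 2.68e-05 and 0.000176, beside 2.55e-05 with all 6 hearts. Over all clusters, the count called higher fell from 159 to between 0 and 90 in the same fits.

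Tnfrsf1a encodes TNFR1, the death domain receptor through which soluble TNF acts on most cell types. Its signal was 7.55, 7.43 and 7.70 in AAV9-GFP hearts and 8.05, 8.13 and 8.21 in AAV9-Rbm24 hearts. All 3 AAV9-Rbm24 hearts lay above all AAV9-GFP hearts, with a narrow spread in both groups. The log2 fold change was 0.57 (SE 0.110, 95% interval 0.31 to 0.82, limma unadjusted p = 0.000933, adjusted p = 0.123), and the 1.48-fold difference fell short of the fold of 1.5 that the methods ask for. It exceeded that fold with centring on the array median (0.59), without AAV9-GFP replicate 3 (0.64) and without AAV9-Rbm24 replicate 1 (0.61).

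Tnfrsf1b encodes TNFR2, which lacks a death domain, responds mainly to membrane-bound TNF and is found chiefly on leukocytes and endothelial cells. Its signal was 7.11, 6.85 and 6.87 in AAV9-GFP hearts and 7.36, 7.55 and 7.78 in AAV9-Rbm24 hearts. The groups did not overlap, but AAV9-GFP replicate 1 and AAV9-Rbm24 replicate 1 were only a little apart. The log2 fold change was 0.62 (SE 0.137, 95% interval 0.31 to 0.94, limma unadjusted p = 0.002, adjusted p = 0.183). It passed both thresholds of the methods at 1.54-fold. It did not with array weights (0.54), without AAV9-GFP replicate 2 (0.58) or without AAV9-Rbm24 replicate 3 (0.52). In these fits the log2 value fell under the 0.585 of a 1.5-fold change.

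Tnfrsf11a encodes RANK, known for osteoclast formation and also present on macrophages and dendritic cells. Its signal was 6.23, 6.26 and 6.28 in AAV9-GFP hearts against 6.53, 6.60 and 6.70 in AAV9-Rbm24 hearts. The hearts within each group were close together and the gap between groups was wider than the spread within them. The log2 fold change was 0.35 (SE 0.096, 95% interval 0.13 to 0.58, limma unadjusted p = 0.00654, adjusted p = 0.302), a difference of 1.28-fold.

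**Figure D2:**
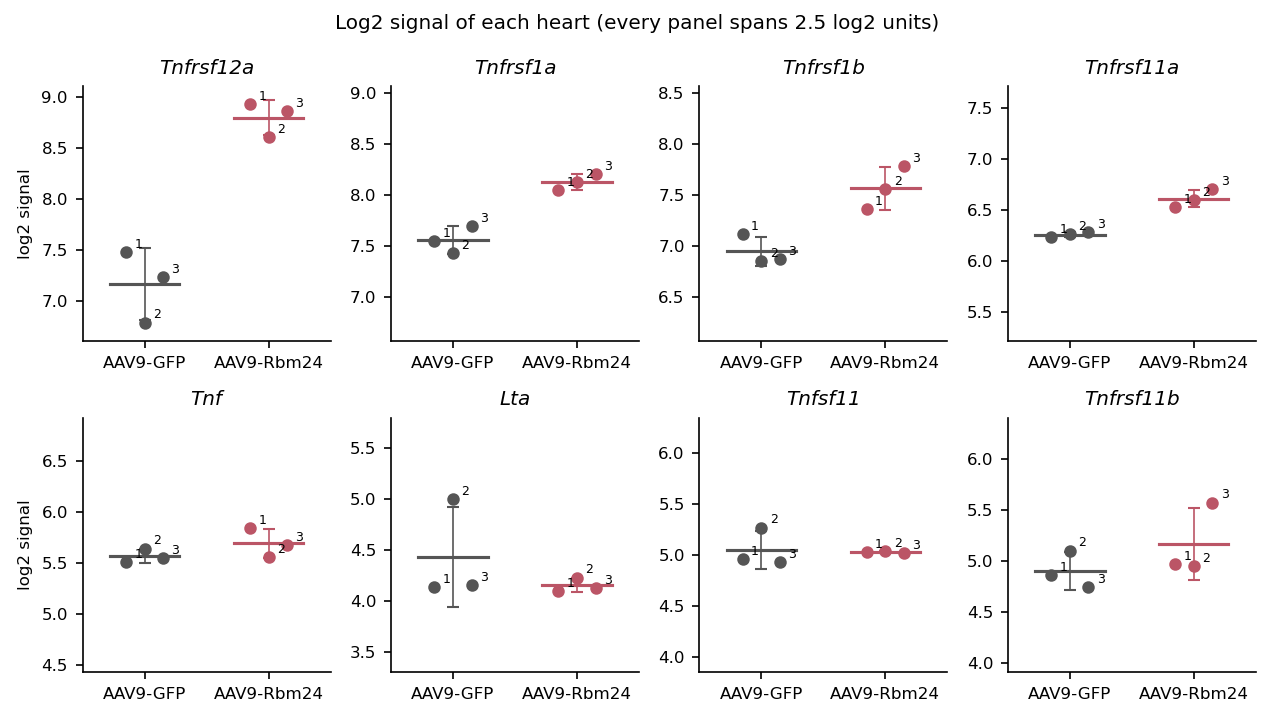
Log2 signal of each heart (points, numbered by replicate) with group means (horizontal lines) and SD (error bars, n = 3), for 4 receptors in the top row and for Tnf, Lta, Tnfsf11 and the decoy Tnfrsf11b in the bottom row. The 2 groups separate in all 4 top panels and overlap in all 4 bottom panels.

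None of the measured ligands of these receptors passed a test. Tnf, the cytokine bound by TNFR1 and TNFR2, had signals of 5.51, 5.64 and 5.55 in AAV9-GFP hearts and 5.84, 5.56 and 5.67 in AAV9-Rbm24 hearts. The groups overlapped, and the log2 difference was 0.12 (95% interval -0.13 to 0.37, limma unadjusted p = 0.306). Lta, lymphotoxin-α, which binds the same receptors, had signals of 4.14, 5.0 and 4.16 against 4.10, 4.23 and 4.13. AAV9-GFP replicate 2 alone was high, and the log2 difference was -0.28 (95% interval -0.80 to 0.23) with that heart and 0.00 without it. Tnfsf11, or RANKL, had signals of 4.96, 5.27 and 4.93 against 5.03, 5.04 and 5.02, again with AAV9-GFP replicate 2 the highest heart, and a log2 difference of -0.03 (95% interval -0.30 to 0.25), or 0.08 without that heart.

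Of the 16 ligands, 11 had signals below the array median on every array, so most ligands were dim on these arrays. Tnfsf10 (TRAIL), which can trigger apoptosis through death receptors, was the 1 ligand with a mean above 8, at 8.60 ± 0.178 and 8.65 ± 0.311 (SD, n = 3), with a log2 difference of 0.05 (95% interval -0.35 to 0.45). Tnfsf13b (BAFF), a survival factor of B cells, had means of 6.50 and 6.47, a difference of -0.03 (-0.25 to 0.20). These values show no difference in TRAIL or BAFF beyond the spread between hearts. In Fasl, the ligand of Fas, all 3 AAV9-Rbm24 hearts lay above the AAV9-GFP hearts (means 4.88 and 4.66, log2 difference 0.23, limma unadjusted p = 0.0607). Its unadjusted p was 0.0238 with array weights, 0.0421 with centring on the array median, 0.0455 in limma on clusters with 1 symbol, 0.0141 after renewed quantile normalization and 0.0377 in the analysis of variance of the methods. Tnfsf4 (OX40 ligand), a costimulator of T cells, and Tnfsf15 (TL1A), which does so through Tnfrsf25, were the 2 members with all AAV9-Rbm24 hearts below all AAV9-GFP hearts. Their log2 differences were -0.23 and -0.12 (unadjusted p = 0.0699 and 0.244 in limma), and Tnfsf4 was under 0.05 without AAV9-Rbm24 replicate 2. Both directions thus occurred among dim ligands whose groups did not overlap.

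The remaining ligands had log2 differences between -0.16 (Cd40lg, the T cell ligand of Cd40) and 0.08 (Eda, ectodysplasin, which acts in skin appendages). Ltb, the membrane partner of Lta, differed by 0.05, Cd70, the ligand of Cd27, by 0.07, and the costimulatory ligands Tnfsf8, Tnfsf9 and Tnfsf18 by 0.00, 0.01 and 0.00 (Tnfsf18 by 0.19 without AAV9-GFP replicate 2). Tnfsf14 (LIGHT), a ligand of Ltbr and Tnfrsf14, had signals of 6.05, 6.89 and 5.97 against 6.33, 6.26 and 6.22, where AAV9-GFP replicate 2 was far above the others. Its log2 difference was -0.03 with an interval of -0.57 to 0.50, and 0.26 without that heart (limma unadjusted p = 0.0249). Over the 16 ligands the median difference was 0.00, with 8 above 0 and 8 below, and it was 0.07 without AAV9-GFP replicate 2.

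Among the 7 receptors with a death domain, Tnfrsf1a was the 1 with an unadjusted p under 0.05. Fas, which starts apoptosis on binding Fasl, had means of 9.16 ± 0.427 and 9.32 ± 0.205 (SD, n = 3) and a log2 difference of 0.16 (95% interval -0.34 to 0.66). AAV9-GFP replicate 2 was the lowest heart, and without it the difference turned to -0.08. Tnfrsf10b, the mouse death receptor for TRAIL, had means of 6.59 and 6.71 with groups that did not overlap, yet a difference of 0.12 (limma unadjusted p = 0.233), and was under 0.05 in the analysis of variance of the methods. Ngfr (p75), the neurotrophin receptor, differed by 0.20 (limma unadjusted p = 0.132). It was under 0.05 with array weights and after renewed quantile normalization. Tnfrsf21 (DR6), Tnfrsf25 (DR3) and Edar, the receptor of Eda, differed by -0.02, -0.09 and -0.09, none beyond the spread between hearts.

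Of the 15 measured receptors without a death domain, Tnfrsf12a, Tnfrsf1b and Tnfrsf11a were described above. Eda2r, a second receptor for a form of Eda, and Tnfrsf18 (GITR), a costimulatory receptor of T cells, had non-overlapping groups. Both differed by 0.17 on the log2 scale (unadjusted p = 0.129 and 0.12 in limma), and Eda2r was under 0.05 in the analysis of variance of the methods. Ltbr, the lymphotoxin-β receptor of stromal and myeloid cells, differed by 0.14 (95% interval -0.10 to 0.38). The B cell receptors of BAFF and its relative, Tnfrsf13b (TACI), Tnfrsf13c (BAFF receptor) and Tnfrsf17 (BCMA), differed by -0.02, -0.04 and -0.06. The lymphocyte costimulatory receptors Tnfrsf4 (OX40), Tnfrsf8 (CD30), Tnfrsf9 (4-1BB) and Tnfrsf14 (HVEM) differed by 0.08, 0.07, 0.04 and -0.07, and Cd40, which activates B cells and macrophages, by 0.01. Tnfrsf19 (TROY) differed by -0.04. None of these receptors of lymphocyte costimulation had an unadjusted p under 0.05.

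The 4 remaining receptors are Tnfrsf11b (osteoprotegerin), a secreted decoy for RANKL and TRAIL, the mouse TRAIL decoys Tnfrsf22 and Tnfrsf23, and Tnfrsf26, their neighbour in the genome. All 4 log2 differences were above 0 (median 0.23), and none had an unadjusted p under 0.05 in limma over the 6 hearts. For 2 of them, a single heart was well above the rest, and these were chosen for display after their values had been seen, as was Tnfsf14. Tnfrsf11b had signals of 4.86, 5.10 and 4.74 in AAV9-GFP hearts and 4.97, 4.95 and 5.57 in AAV9-Rbm24 hearts. Tnfrsf23 had signals of 5.90, 6.02 and 6.0 against 5.97, 6.23 and 6.84. In both, AAV9-Rbm24 replicate 3 was high. The other AAV9-Rbm24 hearts lay within the AAV9-GFP range, except replicate 2 in Tnfrsf23 (6.23), which lay above all AAV9-GFP hearts. Without AAV9-Rbm24 replicate 1, Tnfrsf23 had a limma unadjusted p under 0.05. The log2 differences were 0.27 (95% interval -0.17 to 0.70) and 0.37 (-0.11 to 0.85). Tnfrsf22 differed by 0.18 and Tnfrsf26 by 0.06. The adaptors Traf1 and Traf2, which bind to the tails of TNFR2 and other receptors, differed by 0.07 and 0.02.

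**Figure D3:**
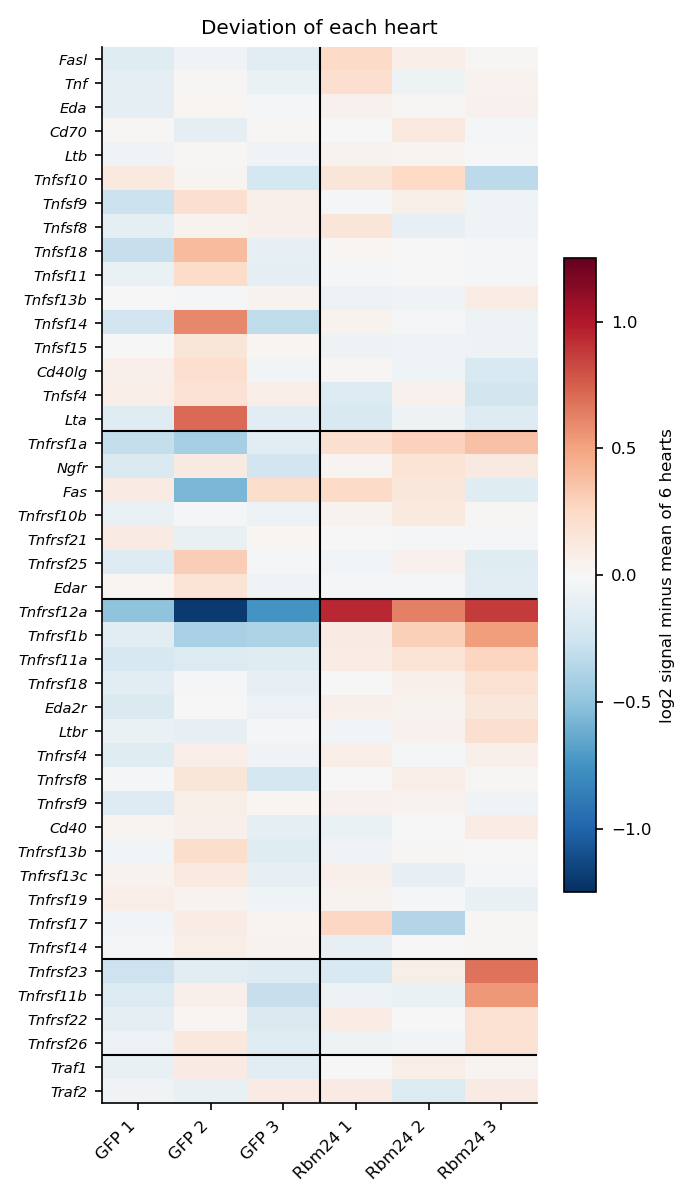
Log2 signal of each heart minus the mean of the 6 hearts, for the 44 members (rows, grouped by role) and the 6 hearts (columns). Tnfrsf12a has the strongest contrast between the groups, AAV9-GFP replicate 2 is high in Lta and Tnfsf14, and AAV9-Rbm24 replicate 3 is high in Tnfrsf23 and Tnfrsf11b.

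The hearts did not share the extremes evenly. AAV9-GFP replicate 2 was the highest of the 6 hearts for 17 of the 44 members (38.6%), beside 35.6% of all clusters. AAV9-Rbm24 replicate 3 was the highest for 14 members (31.8%, against 13.3% of all clusters), and AAV9-GFP replicate 3 for 0 (against 13.7%). AAV9-GFP replicate 1 was the lowest heart for 15 members and AAV9-GFP replicate 3 for 11, and the matching shares of all clusters were not computed.

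Ligands and receptors were next set side by side by known binding. Of 30 pairs listed, 26 had both partners measured, covering 15 ligands and 21 receptors, and many share a partner. In 5 pairs the receptor alone had an unadjusted p under 0.05: Tnf and Lta each with Tnfrsf1a and with Tnfrsf1b, and Tnfsf11 with Tnfrsf11a. In 0 pairs did the ligand, and in the other 21 neither partner did. Without AAV9-GFP replicate 2 the ligand alone did in 3 pairs (Fasl with Fas, Tnfsf14 with Ltbr and with Tnfrsf14) and the receptor alone in 6. With the analysis of variance of the methods the counts were 1 and 7. The receptor's log2 difference was the larger in 21 of the 26 pairs. These pairs are not independent, and the difference between partners was not tested. Signals of 11 of the 16 ligands but only 2 of the 26 receptors lay below the array median on every array. Differences were thus harder to see in ligands than in receptors. For Tnfrsf12a no pair could be formed, because its ligand shares a cluster with other genes.

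**Figure D4:**
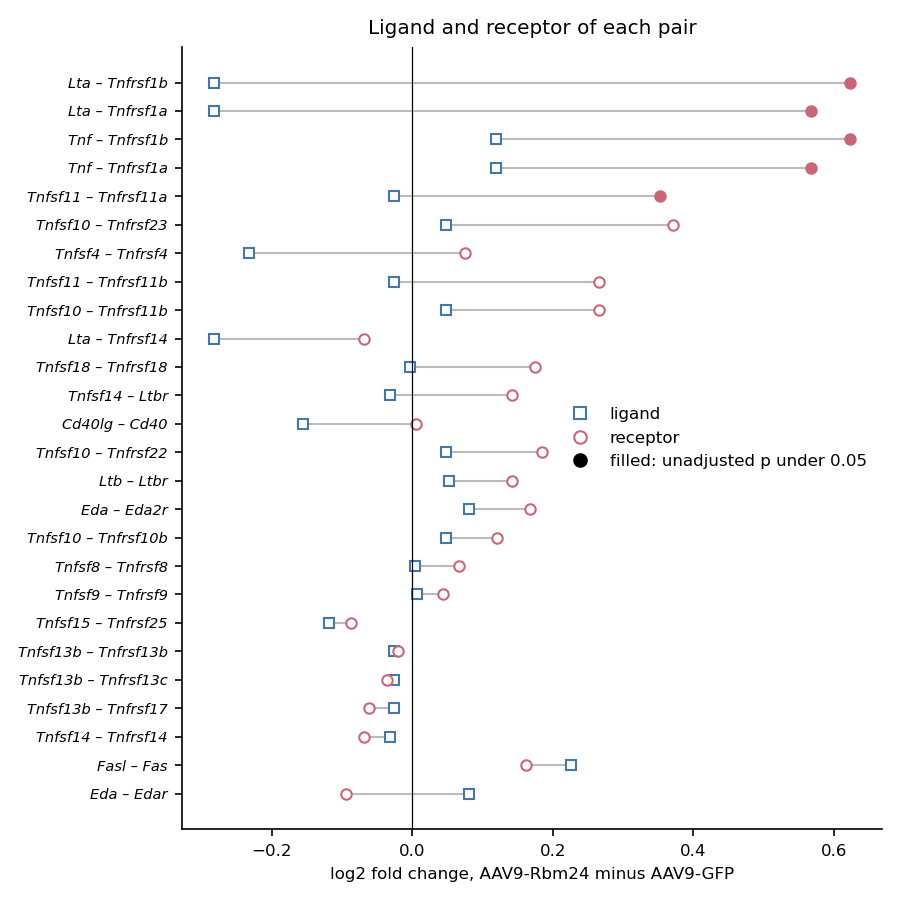
Log2 fold change (AAV9-Rbm24 minus AAV9-GFP) of the ligand (square) and the receptor (circle) in 26 pairs, ordered by the receptor's difference minus the ligand's, filled where the unadjusted limma p was under 0.05. The 5 pairs at the top have filled receptors and open ligands, and Eda with Edar at the bottom is the pair in which the ligand lies farthest above its receptor.

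Several members lie next to each other in the genome (order of protein-coding genes in the RefSeq table), and their log2 differences varied within such groups. Tnfrsf1b (0.62) adjoins Tnfrsf8 (0.07) on chromosome 4, and Tnfrsf1a (0.57) is 1 gene away from Ltbr (0.14) on chromosome 6. Tnfsf4 (-0.23), Tnfsf18 (0.00) and Fasl (0.23) follow one another on chromosome 1, and Ltb (0.05), Tnf (0.12) and Lta (-0.28) on chromosome 17. On chromosome 7, Tnfrsf26, Tnfrsf22 and Tnfrsf23 had differences of 0.06, 0.18 and 0.37. None of the genes in the last 3 groups had an unadjusted p under 0.05 in limma over the 6 hearts, apart from the alternatives given for Fasl. Their order is a description.

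Of the pathway outside the family, 61 of 63 listed genes were measured, with 2 called higher and 0 lower at a limma adjusted p under 0.05 and a median log2 difference of 0.14. The 2 were in the list of 20 TNF-inducible genes and feedback regulators, whose median was 0.30, with p under 0.05 before adjustment for 10 higher and 1 lower gene (4.08% and 4.33% of all clusters). Sele, the endothelial adhesion molecule E-selectin, had signals of 5.90, 6.03 and 6.10 in AAV9-GFP and 6.86, 6.83 and 7.0 in AAV9-Rbm24 hearts (log2 fold change 0.89, limma adjusted p = 0.0265). Ccl2, a chemokine that attracts monocytes, had signals of 6.58, 6.98 and 6.64 against 7.80, 8.43 and 8.42 (1.48, limma adjusted p = 0.0357). In both, the groups were clearly apart. The call of Sele was lost without any 1 of the 6 hearts (limma adjusted p 0.0742 to 0.133) and that of Ccl2 without any 1 but AAV9-Rbm24 replicate 1 (0.0471 without that heart, 0.0957 to 0.157 otherwise). Tnfaip6, a hyaluronan-binding protein (0.95, adjusted p = 0.0557), and Icam1, a leukocyte adhesion molecule (0.77, adjusted p = 0.0731), missed the limma threshold. Tnfaip8, a regulator of apoptosis, was the 1 gene lower at an unadjusted p under 0.05 (-0.36, limma adjusted p = 0.323). Tnfaip8l1, Tnfaip8l2 and Tnfaip8l3 are on the list by their names as relatives of Tnfaip8, not as known TNF-inducible genes. Tnfaip8l2 (0.75, limma adjusted p = 0.242) was among the 10 higher genes. Genes of this list also respond to other stimuli, such as interleukin-1.

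Among 28 measured signalling intermediates, 0 were called and 3 were higher at an unadjusted p under 0.05 (median 0.08), again beside 4.08% of all clusters. Casp8, the caspase that death receptors activate, had signals of 9.20, 9.27 and 9.20 against 9.78, 10.01 and 10.24 (log2 difference 0.79, SE 0.131, limma adjusted p = 0.0784). The groups were well apart although the adjusted p missed the threshold. Birc3 (cIAP2), a ubiquitin ligase of the receptor complex, differed by 0.40 (limma adjusted p = 0.292) and Ripk1, the kinase of that complex, by 0.27 (adjusted p = 0.553). Among 8 measured NF-κB subunits and inhibitors 0 were called, with all 8 above 0 and a median of 0.18. Rel, the subunit c-Rel of lymphoid and myeloid cells, differed by 0.67 (limma adjusted p = 0.231) and Bcl3, a nuclear cofactor of NF-κB, by 0.34 (adjusted p = 0.299). Of 5 genes of ligand and receptor shedding (Adam10, Adam17, Rhbdf1, Rhbdf2 and Timp3, an inhibitor of Adam17), 0 had an unadjusted p under 0.05 (median 0.12).

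**Figure D5:**
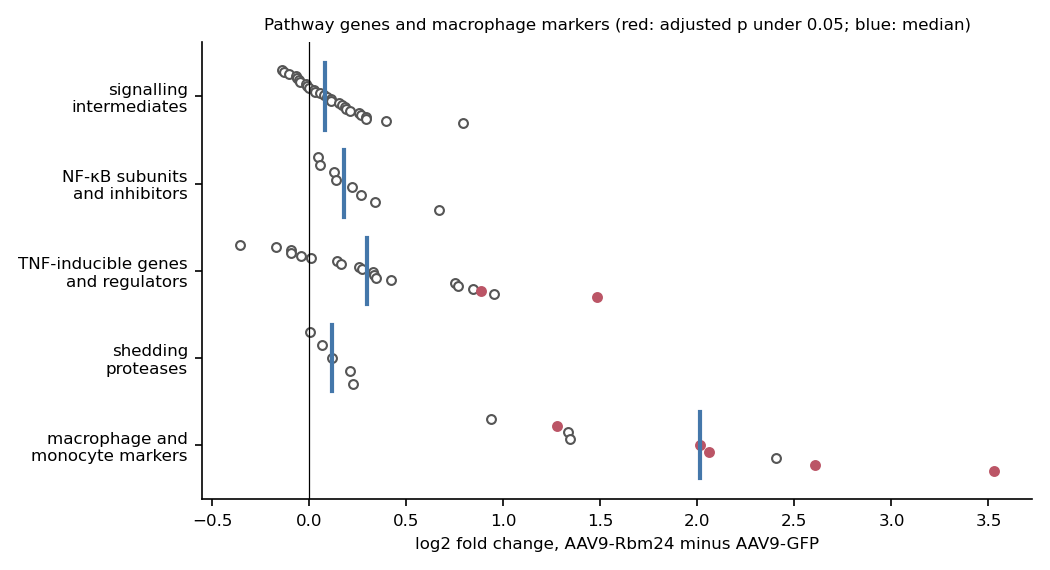
Log2 fold change (AAV9-Rbm24 minus AAV9-GFP) of each measured gene in 4 pathway lists outside the family and in the macrophage and monocyte markers (points, red where the limma adjusted p was under 0.05), with the list median (blue line). Medians run from 0.08 for the signalling intermediates to 0.30 for the TNF-inducible genes, and the macrophage markers have a median of 2.01.

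In the same ventricles, most markers of macrophages and fibroblasts differed between the groups. The lists of other cell types had 0 called. Over all clusters only 0.241% were called higher and 0.0258% lower, so 0 called in such short lists says little about those cell types. All 9 macrophage and monocyte markers were higher at an unadjusted p under 0.05 (4.08% of all clusters) and 5 were called higher by limma. Their mean log2 signal was 8.10 to 8.40 in AAV9-GFP and 9.86 to 10.75 in AAV9-Rbm24 hearts, with the highest value in AAV9-Rbm24 replicate 3. Without any 1 of the other 5 hearts the count called was 0, and without AAV9-Rbm24 replicate 3 it was 5, while all 9 kept an unadjusted p under 0.05 each time. Of 6 measured fibroblast markers 2 were called higher and 5 had an unadjusted p under 0.05, with a mean of 10.94 to 11.33 against 12.32 to 13.21. The fibroblast marker Tcf21 did not differ (-0.03, limma adjusted p = 0.979). The fibroblast count called was 0 without AAV9-GFP replicate 1, 2 or 3 or AAV9-Rbm24 replicate 2, 1 without AAV9-Rbm24 replicate 1 and 3 without AAV9-Rbm24 replicate 3. Their part in the receptor differences was not tested, and in ventricular RNA more cells of a type and more RNA per cell cannot be told apart. Of 5 endothelial markers 0 were called and 0 had an unadjusted p under 0.05 (median -0.03). The same held for 5 pericyte and smooth muscle markers (median -0.04). Of 6 cardiomyocyte markers 0 were called and 1 was lower at an unadjusted p under 0.05 (median -0.03). That was Ryr2, the calcium release channel (-0.37, limma adjusted p = 0.51), and Tnni3, cardiac troponin I, was lower with groups that did not overlap (-0.20, limma adjusted p = 0.648). Among markers of other leukocytes 0 were called, and all 4 NK cell markers, 3 of 5 neutrophil markers, 2 of 5 T cell markers and 0 of 3 B cell markers were below the array median on every array. Of the T cell markers, Cd4, the coreceptor of helper T cells, had an unadjusted p under 0.05 and groups that did not overlap (0.39, limma adjusted p = 0.271) and Cd3d had a difference of -0.28 (adjusted p = 0.656). Of the neutrophil markers, Ly6g was higher (0.31, limma adjusted p = 0.487) and Ngp lower (-0.28, adjusted p = 0.511) at an unadjusted p under 0.05. The T cell list had a mean of 4.98 to 5.22 in AAV9-GFP and 5.10 to 5.18 in AAV9-Rbm24 hearts.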

How the data were processed

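Left ventricular RNA of 6 mouse hearts was measured on 1-colour arrays, 1 per heart. Values were used as deposited: log2 signals, 1 per transcript cluster and heart, made with RMA in Affymetrix Expression Console according to the processing notes of the submitters. Neither the software versions nor a genome build was stated in the sources used here. Of 72688 rows, 6732 controls were left out. Of 65956 clusters, 30638 carried 1 symbol of the platform annotation, 2176 several (not named) and 33142 none. The cluster with the highest mean stood for a gene.

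Groups came from the labels and were tested by limma (version 3.58.1, R 4.3.3: lmFit, eBayes, Benjamini-Hochberg over all clusters), without a filter on dim signals. Alternatives were signal minimums, other normalizations and variance models, array weights, a replicate block, the methods' analysis of variance and leaving out each heart. The procedure was run on data simulated from the limma model without an outlying heart, which checks the code and not the model. Members and lists were chosen with earlier results of these data known. Heart-by-heart values are given for members with an unadjusted p under 0.05 and their partners, and up to 4 genes per pathway list with p under 0.05 are named by smallest p. Tnfaip8 and its relatives, the shedding genes, single markers, and the heart-by-heart values of Tnfsf14, Tnfrsf11b and Tnfrsf23 were added after their values were seen. The number of arrays limits the precision, and an exact permutation test of 3 against 3 hearts cannot go below p = 0.1.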

Additional observations from a re-analysis of the deposited data

How the results depend on the processing

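The number of members called higher was 1, and it fell to 0 when a minimum mean signal of 8 was set, which removes Tnfrsf12a (mean 7.99), and to 0 with the methods' analysis of variance after Benjamini-Hochberg adjustment, where 0 of all clusters passed (smallest adjusted p = 0.135). The methods' analysis of variance at their own thresholds gave 2 members. Leaving out 1 heart at a time gave 0 members called higher each time, beside 0 to 90 of all clusters. The number higher at the thresholds of the methods was 2. It was 1 with array weights (Tnfrsf1b lost, 0.54) and 0 with a minimum mean signal of 8. It was 3 with centring on the array median (Tnfrsf1a added, 0.59), and 1 to 3 when 1 heart was left out. The counts called lower and lower at the thresholds were 0 under all alternatives run. Over 16 alternatives Tnfrsf12a kept its direction, with log2 fold changes of 1.44 to 1.79 and adjusted p of 0.0103 to 0.389, passing in 9. Tnfrsf1a (0.50 to 0.64), Tnfrsf1b (0.52 to 0.72) and Tnfrsf11a (0.31 to 0.39) kept their direction in all 16 and passed in 0.

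With the replicate number as a block, 1 member was called higher (Tnfrsf12a, 1.63, limma adjusted p = 0.0309), while calls over all clusters fell from 159 to 76 higher. Deviations of hearts with the same number correlated at 0.0267, 0.0963 and 0.152, so the numbers were not taken as pairs. Among the other 40 members, 8 changed sign without AAV9-GFP replicate 2. Signals of 13 members lay below the array median on every array, which limits what could be seen for them.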

Other observations

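A few genes had a second cluster. The second cluster of Fas had a log2 difference of 0.31 (SE 0.194, limma adjusted p = 0.731), and its identifier names chromosome 17 while the gene lies on chromosome 19. It had signals of 7.01, 6.24 and 6.75 in AAV9-GFP hearts and 7.02, 7.10 and 6.80 in AAV9-Rbm24 hearts, with AAV9-GFP replicate 2 the lowest, as in the first cluster of Fas. The second cluster of Tnfrsf19 differed by 0.00 (limma adjusted p = 1.00). Cflar, an inhibitor of caspase-8 activation, had clusters whose identifiers name chromosomes 3 and 1, the second being that of the gene, and these differed by 0.15 each.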
